A study of Zea mays with 24 samples.

Results

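The leaf and the anthers of the ND101/W23 hybrid were each compared with the same tissue of the W23 inbred, and the difference between these line effects, leaf minus anthers, was determined for every probe. The measurements were the 9 ND101/W23 arrays of juvenile leaf, 1 mm anther and 1.5 mm anther, of 24 arrays in the study, with 3 arrays in each tissue. Each array carried 2 cRNA samples of one tissue in different dyes, one from ND101/W23 and one from W23, and its values are log2 ratios of ND101/W23 over W23. For each probe, the mean ratio of the 3 leaf arrays was taken minus the mean of the 1 mm and 1.5 mm anther means. A positive difference therefore says that the ratio of the hybrid to W23 was larger in leaf than in anthers, whether the transcript was more abundant in the hybrid's leaf or less abundant in its anthers. Differences were tested with limma over 7894 probes, and calls were made at an adjusted p under 0.05 (Benjamini-Hochberg).

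ND101/W23 is the F1 of an ND101 seed parent and a W23 pollen parent, so that the hybrid shares its paternal genome with the inbred it was set against. The W23 line carries the bz2 mutation, which stops anthocyanin accumulation. All plants were grown in the field. Leaf samples were fully expanded juvenile leaves of different plants, and an anther sample was pooled from the upper florets of typically one tassel. Each array held an independent biological sample of the hybrid, so that the p-values measure the spread between plants together with that of the arrays. A619 was compared with the same W23 samples in the same tissues on 9 other arrays. Because a bulk sample was measured, a lower number of cells of one type and less RNA per cell cannot be told apart. The tissue itself could not be checked against its markers, since a ratio of 2 lines within a tissue does not hold the level of a transcript.

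Leaf cells devote much of their RNA to photosynthesis, carbon fixation and photorespiration, and their photosystems are assembled from subunits encoded partly in the plastid genome and partly in the nucleus. In young anthers the sporogenous cells approach and enter meiosis, while the tapetum, the layer that feeds them, differentiates around them. Maize lines differ in the alleles, the copy number and even the presence of many genes, so that a transcript may differ between lines in one organ and not in another.

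The number of measured values per array lay between 7888 and 7900, and the array medians between -0.04 and 0.04. Over all probes, the 3 leaf arrays correlated with one another at 0.546 to 0.698 and with the anther arrays at -0.233 to 0.235. The 6 anther arrays correlated with one another at 0.108 to 0.672, and the lowest values, 0.108 to 0.33, were those of 1.5 mm anther replicate 2. Another pair of arrays stood apart for transcripts that the study lists as specific to mature pollen: the median ratio of 329 such probes was -0.40 on leaf replicate 3 and 0.44 on 1 mm anther replicate 2, against -0.08 to 0.10 on the other 7 arrays. These arrays are left out in turn below, where a result rests on them. The part of pollen transcripts in the results was not tested.

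The line effect of the hybrid differed between leaf and anthers for 505 of 7894 probes, which is 6.4% of those tested. Of these, 337 probes (4.27%) were higher in leaf and 168 (2.13%) were lower. The called differences had a median size of 1.18 on the log2 scale among the higher probes, up to 5.95, and of 1.23 among the lower ones, down to -6.14. The standard error of a difference had a median of 0.24 over all probes. All 337 and all 168 had the same sign against either anther stage taken alone, and the 3 leaf ratios lay outside the 6 anther ratios for 319 of the higher and 165 of the lower probes. Over all probes the ranges did not overlap for 18.5%. The line effect itself was called in leaf for 714 probes (9.04%), with 436 (5.52%) more and 278 (3.52%) less abundant in the hybrid, and in the mean of both anther stages for 835 (10.6%), with 321 (4.07%) more and 514 (6.51%) less abundant. In the higher group, 179 probes were called against W23 in leaf alone and 101 in anthers alone, while 23 were called in both tissues with opposite signs. In the lower group, the numbers were 102, 45 and 7. Over all probes, the mean ratio in leaf correlated with that in anthers at 0.194, and the 1 mm mean with the 1.5 mm mean at 0.717. These are correlations over probes, which are not independent replicates.

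**Figure D1:**
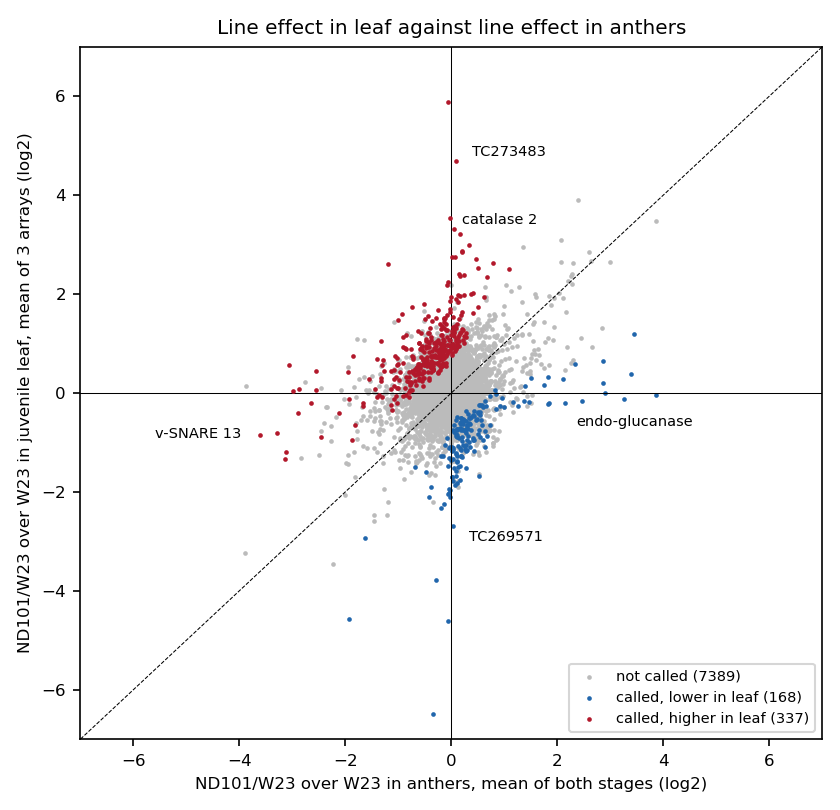
Mean log2 ratio of ND101/W23 over W23 in juvenile leaf (vertical axis, 3 arrays) against the mean of both anther stages (horizontal axis, 6 arrays), 1 point for each of 7894 probes. The 337 probes called higher in leaf lie above the dashed line of equal ratios and the 168 called lower in leaf lie below it, and 281 of the 505 were called against W23 in leaf alone (179 higher and 102 lower).

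The contrast was also taken against each anther stage. Leaf differed from 1 mm anthers for 401 probes (5.08%), of which 268 (3.39%) were higher in leaf and 133 (1.68%) lower, and from 1.5 mm anthers for 151 (1.91%), of which 95 (1.2%) were higher and 56 (0.709%) lower. No probe differed between the 1.5 mm and the 1 mm stage by limma (0%, smallest adjusted p = 0.364), and 344 had an unadjusted p under 0.05. The number of called probes depended on single arrays. Without leaf replicate 1, 2 or 3 the leaf minus anthers comparison called 115, 272 and 223 probes, and without 1.5 mm anther replicate 1 or 3 it called 263 and 210. Leaving out 1.5 mm anther replicate 2, the array that correlated least with the others, raised the number to 831, which included 492 of the 505. Without both leaf replicate 3 and 1 mm anther replicate 2, 130 probes were called, and 118 of them were among the 505. None of the called probes changed sign in any of these fits. The separate stages rested on single arrays more heavily: leaf differed from 1.5 mm anthers for 0 probes without 1.5 mm replicate 3, 1 without replicate 1 and 315 without replicate 2, and from 1 mm anthers for 70 without leaf replicate 1 and 106 without leaf replicate 3. Against W23, leaf had 191 calls without leaf replicate 1, and the anthers had 498 without 1.5 mm replicate 3 and 1294 without 1.5 mm replicate 2.

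Among the transcripts higher in leaf, the largest named one encodes catalase isozyme 2 (TC252043), which breaks down hydrogen peroxide in peroxisomes and serves photorespiration in green tissue. Its log2 ratios were 2.78, 4.53 and 2.66 in leaf, against -0.05, -0.14 and 0.31 in 1 mm anthers and -0.21, 0.33 and 0.08 at 1.5 mm. The catalase transcript was thus more abundant in the hybrid's leaf on every array, whereas the anther ratios scattered around 0. It is on the study's leaf-specific list, so that its anther ratios come from low signals by the study's criterion. The difference was 3.27 ± 0.38 (standard error, 3 leaf and 6 anther arrays), or 9.65-fold, with an adjusted p of 0.00362 from limma. TC267099, similar to a probable NADP-dependent oxidoreductase, had the same form. Its ratios were 1.84, 3.22 and 2.02 in leaf, against -0.05 to 0.52 in 1 mm anthers and -0.13 to 0.33 in 1.5 mm anthers, and the difference was 2.20 ± 0.30 (adjusted p = 0.0065). Leaving out any single array did not remove either call.

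Among transcripts that are not on the list of carbon fixation and photorespiration but act in photosynthesis, rca1 and CP12 were higher in leaf and PPCK1 was lower, and these genes were singled out after their values were seen. rca1 (AW566413.1), Rubisco activase, which frees Rubisco of inhibitory sugar phosphates, had ratios of 1.34, 1.41 and 0.74 in leaf, against -0.01 to 0.24 in 1 mm anthers and -0.10 to 0.11 in 1.5 mm anthers. All 3 leaf arrays lay above all 6 anther arrays, and the difference was 1.11 ± 0.19 (adjusted p = 0.0128), lost without leaf replicate 1 (0.0717). CP12 (TC262005), a small protein that binds Calvin cycle enzymes in the dark, was measured by a probe in reverse to its EST and had 1.31, 1.62 and 0.93 in leaf, against 0.56, 1.04 and -0.20 in 1 mm anthers and -0.20, 0.06 and -0.02 at 1.5 mm. The highest anther ratio of CP12 overlapped the lowest of leaf, and its call (1.08 ± 0.27, adjusted p = 0.0479) was lost when any of 7 arrays was left out. PPCK1 (CB886028), the kinase that activates phosphoenolpyruvate carboxylase by phosphorylation, went the other way, with -0.83, -1.38 and -0.65 in leaf, against 0.33, 0.21 and 0.68 in 1 mm anthers and 0.56, -0.46 and 0.42 at 1.5 mm. Its difference was -1.24 ± 0.27 (adjusted p = 0.0288), and the call was lost when any of 6 arrays was left out. Of 16 measured probes whose product names belong to carbon fixation and photorespiration, catalase was the one called higher (6.25%, against 4.27% of all probes) and none was called lower. The median difference of these 16 probes was -0.04, against -0.01 over all probes.

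The 11 probes whose transcripts are encoded in the plastid genome were gathered after their values had been seen. In this group 5 were called lower in leaf, none was called higher, and 10 of the 11 had a negative difference. Over all probes, 2.13% were called lower and 4.27% higher, and 49.4% had a difference above 0. Part of the group are reverse probes of the study's leaf-specific list, as given below. Of all 279 reverse probes on that list, 87.1% had a difference below 0 and 3.23% were called lower. The median ratio of the 11 plastid-encoded probes was -0.70, -0.87 and -1.10 on the 3 leaf arrays, against 0.43, -0.08 and -0.20 on the 1 mm arrays and 0.04, 0.30 and 0.03 on the 1.5 mm arrays. The array medians over all probes stayed within 0.04 of 0. psbI (TC252382), a small subunit of the photosystem II core, varied little: it had -1.46, -1.55 and -1.47 in leaf, against 0.27, -0.08 and 0.15 in 1 mm anthers and 0.04, 0.30 and 0.04 at 1.5 mm. The leaf and anther ratios of psbI were far apart, and the difference was -1.61 ± 0.16 (adjusted p = 0.00362). ycf3 (TC251425), which encodes an assembly factor of photosystem I, had -1.16, -1.44 and -1.96 in leaf, against -0.18 to 0.53 in 1 mm anthers and -0.02 to 0.07 in 1.5 mm anthers. Its difference was -1.58 ± 0.23 (adjusted p = 0.00757). petB (TC274654), which encodes cytochrome b6 of the complex between the photosystems, had -0.70, -1.70 and -1.51 in leaf, against -0.10 to 0.43 in 1 mm anthers and 0.08 to 0.44 in 1.5 mm anthers, a difference of -1.51 ± 0.25 (adjusted p = 0.0115). These 3 calls were kept without any single array, and psbI and ycf3 also without both leaf replicate 3 and 1 mm anther replicate 2, where petB had an adjusted p of 0.0610.

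A probe for the psbB-psbF-petB-petD cluster, from which several thylakoid proteins are made, had -1.06, -0.87 and -1.50 in leaf, against 0.44, 0.10 and -0.30 in 1 mm anthers and 0.18, -0.12 and -0.15 at 1.5 mm. The difference was -1.17 ± 0.22 (adjusted p = 0.0182), lost without leaf replicate 1 or 3 (up to 0.0718). psbC (TC251612), which encodes the CP43 antenna of photosystem II, had -0.77, -1.04 and -1.10 in leaf, against 0.61, -0.35 and 0.01 in 1 mm anthers and -0.17, 0.59 and 0.48 at 1.5 mm. Its difference was -1.17 ± 0.25 (adjusted p = 0.0290), and the call was lost without any leaf array, 1 mm replicate 3 or 1.5 mm replicate 3. The other 6 probes did not pass. Among them psbK (CF050423), a photosystem II subunit cotranscribed with psbI, had a difference of -1.06 ± 0.34 (adjusted p = 0.0889), atpB (TC248277) of the ATP synthase -0.67 (0.0697), and psaB (TC260531), a core protein of photosystem I, 0.29 (0.578). Several of these genes share polycistronic transcripts, so that the probes are not independent measures.

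Most of these probes are printed on the array in reverse to the EST they were designed from. psbI, ycf3, petB and psbC of the called probes are reverse and the cluster probe is forward. These reverse probes are on the study's leaf-specific list, so that their anther ratios come from low signals. What part the shift of reverse probes on that list has in their calls was not tested. A forward probe for ycf3 had a difference of -0.28 ± 0.51 (adjusted p = 0.749). A psbB probe that the study classes as antisense (TC263487) had -0.63 (0.153). Which strand the other reverse probes read, those of nuclear transcripts included, was not determined. The labelling kit starts its copies at poly(A) tails, which plastid messengers mostly lack.

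**Figure D2:**
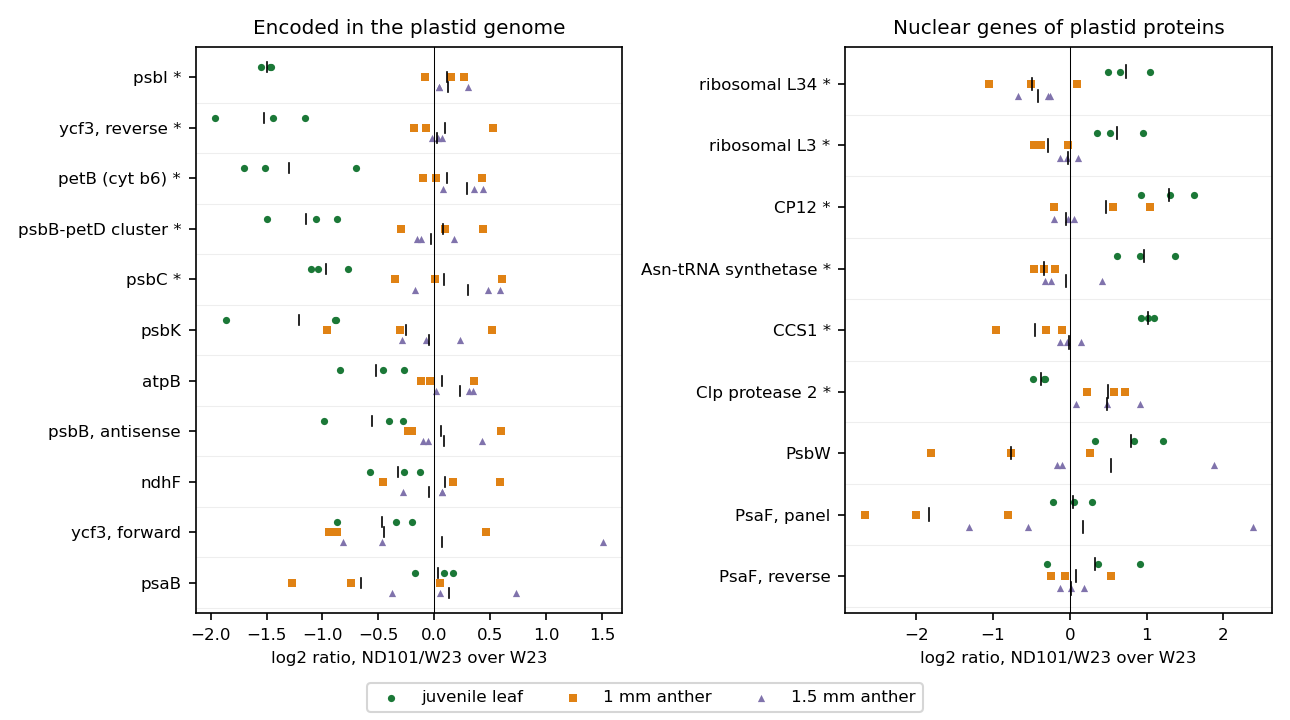
Log2 ratios of ND101/W23 over W23 on each array for 11 probes of plastid-encoded transcripts (left) and 9 probes of nuclear genes (right). The nuclear genes are those grouped with plastid proteins, though the name of the Clp protease subunit gives no compartment. Leaf stands above 1 mm and 1.5 mm anthers in each row. Short vertical lines are means of 3 arrays and an asterisk marks a call of leaf minus anthers; the 5 called plastid probes have all their leaf ratios at -0.70 or lower, while the 5 nuclear probes called higher have theirs above 0 and the Clp protease subunit, called lower, has its own between -0.48 and -0.32.

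Besides rca1 and CP12 above, other nuclear genes whose products work in plastids were called, and the called ones described here were higher. A Clp protease subunit grouped with them by its name was lower. The asparaginyl-tRNA synthetase and CCS1 below were singled out after their values were seen. TC270374, the plastid ribosomal protein L34, had ratios of 0.66, 1.05 and 0.50 in leaf, against 0.09, -0.51 and -1.05 in 1 mm anthers and -0.29, -0.68 and -0.26 at 1.5 mm, a difference of 1.19 ± 0.26 (adjusted p = 0.0290). TC270449, the plastid ribosomal protein L3, had 0.52, 0.95 and 0.36 in leaf, against -0.02, -0.47 and -0.37 in 1 mm anthers and -0.13, -0.04 and 0.11 at 1.5 mm, a difference of 0.76 ± 0.19 (adjusted p = 0.0455). In both transcripts the leaf ratios lay above every anther ratio. Their calls were lost when any of 5 arrays was left out for L34 and any of 7 for L3. An asparaginyl-tRNA synthetase of the organelles (TC271589) had 0.91, 0.61 and 1.37 in leaf, against -0.47 to -0.19 in 1 mm anthers and -0.32 to 0.42 in 1.5 mm anthers. Its difference was 1.16 ± 0.23 (adjusted p = 0.0237), lost without leaf replicate 1 or 3 or 1.5 mm replicate 1. CCS1 (TC273947), which takes part in the synthesis of plastid c-type cytochromes, had 1.10, 0.93 and 1.02 in leaf, against -0.96 to -0.10 in 1 mm anthers and -0.13 to 0.14 in 1.5 mm anthers. The difference was 1.25 ± 0.21 (adjusted p = 0.0117), lost without leaf replicate 1. A Clp protease subunit (TC250703), whose product name gives no compartment, was lower. It is on the study's list specific to 1 mm anthers, so that its leaf and 1.5 mm ratios come from low signals. Its leaf ratios were -0.33, -0.32 and -0.48 and its difference -0.87 ± 0.21 (adjusted p = 0.0418), by a probe in reverse to its EST, and this call was lost when any of 7 arrays was left out. Nuclear subunits of the photosystems did not pass: PsbW (TC270718) had a difference of 0.91 (adjusted p = 0.303) and PsaF (TC248243) one of 0.87 (0.455). In the list of photosystem and thylakoid transcripts, 4 of 17 probes (23.5%) were called lower, all plastid-encoded, and none higher, with a median of -0.28. In that of plastid ribosome, import and biogenesis, 2 of 10 (20%) were called higher and 1 (10%), the Clp protease subunit, lower, with a median of 0.62. The shares over all probes were 4.27% higher and 2.13% lower, at a median of -0.01.

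Among respiratory transcripts, a pair with similarity to cytochrome b was lower in leaf. TC256120, similar to a cytochrome b fragment over a short stretch, had ratios of -1.47, -3.50 and -1.76 in leaf, against 0.02, -0.60 and -0.62 in 1 mm anthers and -0.16, 0.04 and 0.45 at 1.5 mm. TC253961, similar to rice cytochrome b, a core subunit of respiratory complex III, had -0.86, -1.14 and -0.88 in leaf, against 0.71, 0.23 and 0.33 in 1 mm anthers and 0.83, 0.61 and 0.88 at 1.5 mm. The ratios of TC253961 were negative on every leaf array and positive on every anther array. This transcript is on the study's list specific to 1 mm anthers, so that its leaf and 1.5 mm ratios come from low signals. The differences were -2.10 ± 0.41 (adjusted p = 0.0220, lost without 1.5 mm replicate 3 at 0.0510) and -1.56 ± 0.17 (adjusted p = 0.00362, kept without any single array). TC256120 is on the study's pollen-specific list, so that its leaf and anther ratios come from low signals. Without leaf replicate 3 and 1 mm anther replicate 2 its difference was -2.39 (adjusted p = 0.0642 by limma). Among 7 probes of the list of respiratory chain and ATP synthase these were the calls (28.6% lower, against 2.13% of all probes). The median difference was -0.25. This list was gathered by product name and also holds the plastid-encoded atpB (TC248277).

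Other named transcripts higher in leaf matched lipid, membrane, signalling and stress proteins. TC272805, similar to a syringomycin biosynthesis enzyme, had ratios of 3.09, 3.73 and 1.71 in leaf, against 0.09, 0.84 and 0.06 in 1 mm anthers and -0.03, 0.01 and 0.26 at 1.5 mm, a difference of 2.64 ± 0.39 (adjusted p = 0.00862). TC273756, a homologue of lysophospholipase, which removes a fatty acid from lysophospholipids, had 2.18, 2.71 and 0.94 in leaf, against -0.26, 0.67 and -0.09 in 1 mm anthers and -0.02, -0.32 and 0.03 at 1.5 mm. Its difference was 1.94 ± 0.37 (adjusted p = 0.0192), lost without leaf replicate 1 or 2. Both are on the study's pollen-specific list, so that their leaf and anther ratios come from low signals. Without leaf replicate 3 and 1 mm anther replicate 2 the differences were 3.33 (TC272805, adjusted p = 0.00503 by limma) and 2.58 (TC273756, 0.00843). A Sec14-like protein (TC274118), of a family that transfers phospholipids between membranes, differed by 1.82 ± 0.33 (adjusted p = 0.0166, lost without leaf replicate 2), with leaf ratios of 1.52, 2.61 and 1.60. TC250964, similar to the ultraviolet-B photoreceptor UVR8, had leaf ratios of 0.86, 0.78 and 1.41, against -0.78 to 0.28 in 1 mm anthers and -0.55 to -0.46 in 1.5 mm anthers, a difference of 1.45 ± 0.25 (adjusted p = 0.0141, lost without leaf replicate 1 or 3). GRAB1 (TC261714), a transcription factor of the NAC family, had 1.20, 1.95 and 1.01 in leaf, against -0.26 to 0.13 and -0.68 to 0.09 in the anther stages, and a drought-inducible protein (TC258611) had 1.17, 1.40 and 0.62, against -0.94 to -0.37 and -0.35 to 0.13. They differed by 1.49 ± 0.26 and 1.45 ± 0.23 (adjusted p = 0.0146 and 0.0111), both lost without leaf replicate 1. Proteinase IV (BE453757), a protease named from its Arabidopsis match, was positive on all leaf arrays (0.87, 0.65 and 1.77) and negative on all anther arrays (-0.85 to -0.17), a difference of 1.58 ± 0.27 (adjusted p = 0.0133).

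Other transcripts had their line effect in the anthers, or in both tissues with opposite signs. v-SNARE 13 (TC249924), a membrane fusion protein of vesicle transport, had ratios of -0.85, -1.15 and -0.42 in leaf, against -2.26, -4.20 and -3.88 in 1 mm anthers and -3.34, -3.27 and -2.80 at 1.5 mm. Its transcript was less abundant in the hybrid than in W23 on all 9 arrays and more so in anthers, a difference of 2.48 ± 0.39 (adjusted p = 0.0109, lost without leaf replicate 1 at 0.0510). A formamidase-like transcript (TC259137) changed sign between the tissues, with 1.14, 0.50 and 1.09 in leaf, against -0.70, -1.23 and -1.05 in 1 mm anthers and -0.82, -0.92 and -0.47 at 1.5 mm. It was called in leaf and in anthers, and the difference was 1.77 ± 0.21 (adjusted p = 0.00403). opr8 (CD952571), an oxophytodienoate reductase of jasmonate synthesis, a pathway required for tassel development in maize, had 0.47, 0.27 and 0.23 in leaf, against -0.72, -0.91 and -1.96 in 1 mm anthers and -0.98, -0.35 and -1.34 at 1.5 mm. The iron storage protein ferritin (fer1, AI065770) had 0.66, -0.08 and 0.39, against -0.35, -0.85 and -0.46 in 1 mm anthers and -1.16, -0.71 and -1.59 at 1.5 mm. No anther ratio of either gene reached its leaf ratios, and the differences were 1.37 ± 0.31 (opr8, adjusted p = 0.0313) and 1.18 ± 0.25 (fer1, adjusted p = 0.0273), and leaving out any of 5 arrays for opr8 or any of 4 for fer1 removed the call. DNA topoisomerase I (TC251209), which relaxes supercoiled DNA, had 0.46, 0.34 and 0.69 in leaf, against -0.84 to -0.42 and -0.71 to -0.33 in the anther stages, a difference of 1.08 ± 0.18 (adjusted p = 0.0117, lost without leaf replicate 1). This transcript is on the study's list specific to 1.5 mm anthers, so that its leaf and 1 mm ratios come from low signals.

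In the lower group, an endo-1,4-beta-glucanase (TC262031), an enzyme that cleaves beta-1,4-glucans of the cell wall, was close to 0 in leaf, at -0.09, -0.01 and -0.24. Its anther ratios were 1.22, 3.61 and 6.06 at 1 mm and 3.24, 3.02 and 2.43 at 1.5 mm. The glucanase is on the study's list specific to 1 mm anthers, so that its leaf and 1.5 mm ratios come from low signals. All 6 anther arrays were above leaf, with a wide spread at 1 mm, and the difference was -3.38 ± 0.81 (adjusted p = 0.0403), lost when any of 6 arrays was left out and, at -3.32 (adjusted p = 0.153), without leaf replicate 3 and 1 mm anther replicate 2. his2b5 (AI691461), a histone H2B, had 0.10, -0.07 and -0.22 in leaf, against 0.75, 0.55 and 0.62 in 1 mm anthers and 0.69, 0.97 and 0.79 at 1.5 mm, a difference of -0.79 ± 0.16 (adjusted p = 0.0231, lost without any leaf array or 1.5 mm replicate 3). A CIPK-like protein kinase (TC248752), of a family that acts with calcium sensors, was negative in leaf (-0.56, -1.19 and -0.52) and positive in both anther stages (0.09 to 0.62 and 0.49 to 0.83). A nucleotide sugar epimerase-like transcript (TC264386), of enzymes that supply sugars for wall polysaccharides, had -1.09, -1.56 and -0.96 in leaf, against 0.03 to 0.30 and -0.16 to 0.18 in the anther stages. Both differed by -1.29, with standard errors of 0.21 and 0.19 (adjusted p = 0.0117 for TC248752 and 0.00757 for TC264386), and both calls were kept without any single array. A dicarboxylate cotransporter of the pollen-specific list (CF634733), read by a reverse probe, had -2.23, -2.74 and -1.18 in leaf, against -0.33 to -0.11 and -0.59 to 1.42 in the anther stages, and the aquaporin TIP2-1 (AW928268) of the vacuolar membrane had -0.86, -1.76 and -0.72, against -0.06 to 0.36 and -0.59 to 0.05. They differed by -1.99 ± 0.47 (CF634733, adjusted p = 0.0402) and -1.07 ± 0.26 (AW928268, adjusted p = 0.0426), and these calls were lost when any of 6 and any of 8 arrays was left out. As CF634733 is listed for pollen, its leaf and anther ratios come from low signals.

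**Figure D3:**
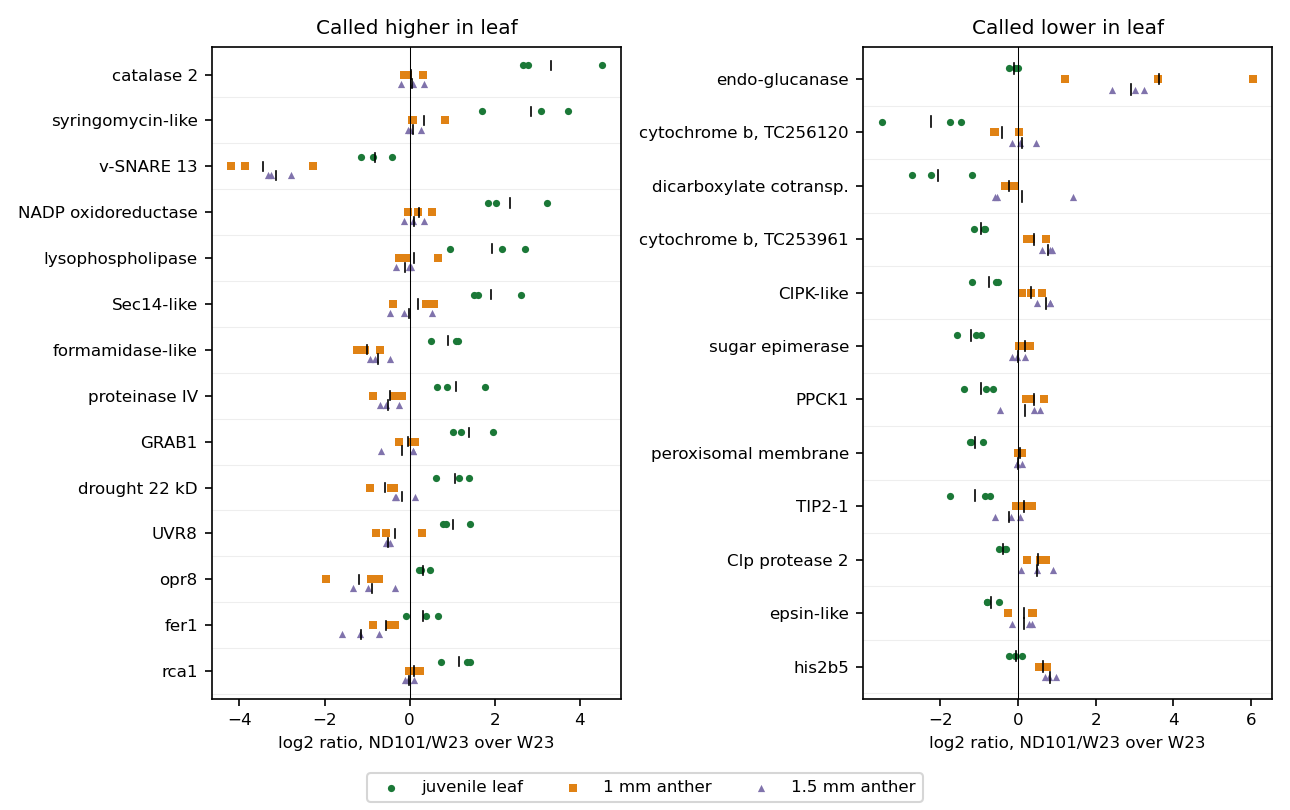
Log2 ratios of ND101/W23 over W23 on each array for 14 named transcripts called higher in leaf (left) and 12 called lower (right), with leaf above 1 mm and 1.5 mm anthers in each row and short vertical lines for means of 3 arrays. Catalase 2 stands at 2.66 to 4.53 in leaf and near 0 in anthers, whereas v-SNARE 13 and the endo-glucanase have their largest ratios in anthers.

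The most extreme probes carry no gene name. An unnamed probe (array number 21045) had ratios of 5.57, 7.25 and 4.83 in leaf, against 0.44, 0.26 and -0.24 in 1 mm anthers and 0.30, -0.82 and -0.33 at 1.5 mm, a difference of 5.95 ± 0.48 (adjusted p = 0.00257). At the other end, probe 21007 had -7.02, -8.22 and -4.21 in leaf, against 0.43, -0.03 and -0.73 in 1 mm anthers and 0.32, -1.39 and -0.68 at 1.5 mm, a difference of -6.14 ± 0.76 (adjusted p = 0.00449). Among EST assemblies of unknown product on the leaf-specific list, TC273483 had 4.02, 6.30 and 3.76 in leaf and -0.43 to 0.43 in anthers, and TC269571 had -2.75, -3.37 and -1.93 in leaf and -0.12 to 0.33 in anthers. On all 3 leaf arrays these 4 probes lay far outside their anther ratios, and their calls were kept without any single array. TC273483 and TC269571 are read by reverse probes. Another leaf-specific probe of unknown product (array number 20520) had 0.86, 0.58 and 0.29 in leaf, against 0.32, -3.18 and -1.13 in 1 mm anthers and -5.68, -3.85 and -4.91 at 1.5 mm. Its lowest ratios were those of the 1.5 mm stage, and the difference was 3.65 ± 0.66 (adjusted p = 0.0162). Its call was lost without leaf replicate 1 or 2, and as a leaf-specific probe it has anther ratios that come from low signals.

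The study's qRT-PCR panel held 24 measured probes, with a median difference of 0.11, of which TC270449 (L3) was called higher and TC270572, an unknown protein named after a rice match, lower (4.17% each way, against 4.27% and 2.13% of all probes). TC270572 had positive ratios on every array, with 0.61, 1.81 and 1.15 in leaf, against 1.95, 4.16 and 4.37 in 1 mm anthers and 3.16, 4.32 and 2.75 at 1.5 mm. Against W23 it was called by limma in anthers and not in leaf (adjusted p = 0.142 in leaf). The difference was -2.26 ± 0.56 (adjusted p = 0.0452), lost when any of 7 arrays was left out. The primers that the study designed to measure these transcripts by PCR identify the stretch of each mRNA and are given here 5′ to 3′:
TC270449 forward primer: accctgctacaaactggatg
TC270449 reverse primer: ttttcaggaaccagaagtgc
TC270572 forward primer: tgcctgattacatattgccaac
TC270572 reverse primer: gtgagaagagaacactcacacaga
Other panel members did not pass, among them ribosomal protein L15 at -1.34 (adjusted p = 0.0636), a late embryogenesis abundant protein at -1.02 (0.0539), beta-expansin (TC278658) at -1.10 (0.118) and beta-6 tubulin (TC248696) at 0.98 (0.0674). CR14 (TC259322), a subunit of respiratory complex III, was lower in the hybrid on all 9 arrays, from -5.46 to -1.07, and its difference between the tissues was 0.66 (adjusted p = 0.613).

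The lists of tissue-specific transcripts had been chosen by the study on these same samples. A listed transcript had little signal outside its own tissue or stage by the study's criterion, so that its ratios there come from low signals. Over all probes, 4.27% were called higher and 2.13% lower, with a median difference of -0.01. Of 863 leaf-specific probes, 50 (5.79%) were called higher and 20 (2.32%) lower, with a median of -0.13. Of 329 pollen-specific probes, 3 (0.912%) were higher and 6 (1.82%) lower, with a median of -0.29, and of 218 specific to 1 mm anthers, 1 (0.459%) was higher and 3 (1.38%) lower, with a median of 0.10. Of 125 specific to 1.5 mm anthers, 8 (6.4%) were higher and none lower, with a median of 0.31, and the median ratio of this list was 0.07 on each leaf array, against -0.22 to -0.05 on the 1 mm arrays and -0.32 to 0.01 on the 1.5 mm arrays. TC258155 of that list had 1.12, 1.28 and 0.76 in leaf and -2.55 to -0.61 in anthers, a difference of 2.39 ± 0.41 (adjusted p = 0.0134, lost without leaf replicate 1).

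The leaf-specific probes divided by their orientation on the EST. The 279 reverse probes had a median difference of -0.27, with 243 (87.1%) below 0, 3 (1.08%) called higher and 9 (3.23%) called lower. The 584 forward probes had a median of 0.02, with 284 (48.6%) below 0, 47 (8.05%) called higher and 11 (1.88%) called lower. On single arrays, the median ratio of the reverse probes was -0.18, -0.12 and -0.22 in leaf, against 0.34, 0.03 and 0.03 in 1 mm anthers and 0.07, -0.01 and -0.02 at 1.5 mm. All 3 leaf arrays were therefore on the negative side, and of the anther arrays 1 mm replicate 1 was the one clearly above 0. The forward probes had medians between -0.06 and 0.09 on all 9 arrays. In the pollen-specific list the medians of both orientations were below 0, at -0.23 for 66 reverse and -0.33 for 263 forward probes.

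**Figure D4:**
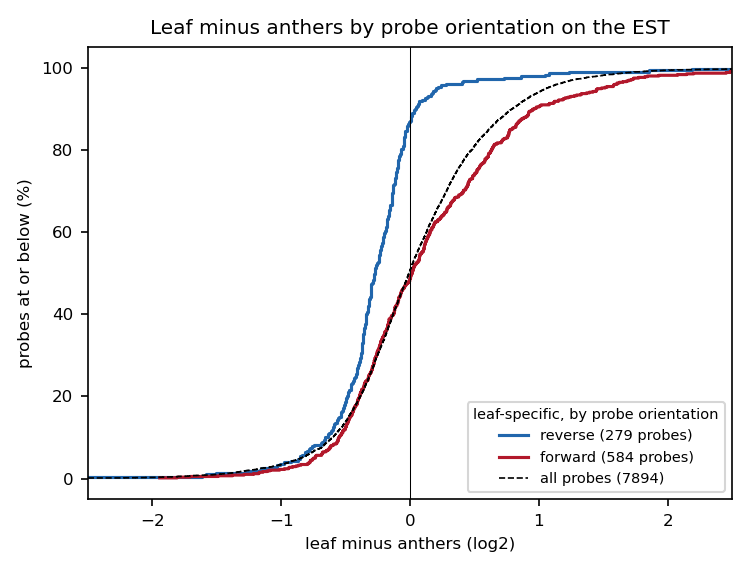
Cumulative share of probes (vertical axis, percent) at or below a given leaf minus anthers difference (horizontal axis, log2) for reverse and forward probes of the leaf-specific list and for all 7894 probes (dashed). The curve of the 279 reverse probes crosses 0 at 87.1% and that of the 584 forward probes at 48.6%.

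Functional groups collected by product name were small, so that a share of 4.27% higher and 2.13% lower, as over all probes, amounts to few calls or none in each. A list holds only probes whose product name matched its words, so that called probes of like function can be missing. The Clp protease subunit TC250703, called lower, is missing from proteolysis and GRAB1 from transcription factors. TC267099 is missing from redox enzymes and TIP2-1 from membrane transport. Of 35 probes of ubiquitin and proteolysis, 3 (8.57%) were higher and none lower, with a median of 0.26. Of 45 transcription factors and DNA-binding proteins, 2 (4.44%) were higher and none lower, with a median of 0.01, and of 30 probes of membrane transport 1 was higher, the peroxisomal ABC transporter TC252203 (1.23, adjusted p = 0.0275), and 1 lower, the dicarboxylate cotransporter, with a median of -0.09. Of 44 probes of the cytoskeleton and of 9 cytochrome P450 enzymes 1 each was higher, with medians of -0.12 and -0.10. Of 11 probes of nitrogen metabolism (median -0.16) 1 was lower, an asparaginase (TC274941, -0.84, adjusted p = 0.0458) with a probe in reverse to its EST. Of 69 cell cycle transcripts (median -0.07) 1 was lower: TC250741, at -2.05 (adjusted p = 0.0275), had ratios of -0.39, 0.27 and -0.51 in leaf, against 0.95, 1.36 and 3.01 in 1 mm anthers and 2.46, 1.47 and 1.80 at 1.5 mm. Catalase was also the single call, higher, among 14 redox enzymes (median -0.08). The list of 48 protein kinases and phosphatases held no call (median -0.05). Its words miss, among others, the CIPK-like TC248752, the kinase-like TC264684 (0.82, adjusted p = 0.0374) and the receptor kinase-like TC273391 (0.86, adjusted p = 0.0182). The CTD-phosphatase-like TC272055 (0.95, adjusted p = 0.0286) is also missed. No probe was called among 9 of sugar and starch metabolism (median -0.28), 10 heat shock proteins (0.10), 6 histones (-0.24, his2b5 not being on this list) and 4 of pigment synthesis (0.53). Gene symbols of the platform were available for 82 probes, of which 3 were higher and 3 lower (3.66% each way), all described above, with a median of -0.06. The 17 cell wall transcripts had the lowest median of these groups, -0.99, with the endo-glucanase as their call. Their median ratio was -0.87 on leaf replicate 3 and 2.17 on 1 mm anther replicate 2, against -0.12 to 0.17 on the other 7 arrays, and these are the arrays on which the pollen-specific list was shifted.

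The same leaf minus anthers difference was computed for A619, and the difference of the lines was tested on arrays paired by tissue and replicate number. Both lines were compared with the same W23 samples, which cancel in this test. The lines differed for 2320 of 7887 probes (29.4%), of which 1111 (14.1%) were larger in ND101/W23 and 1209 (15.3%) smaller. Without leaf replicate 2 of both lines, 1389 probes were called. Of the 337 probes higher in leaf in the hybrid, 164 of 336 tested also differed from A619, and of the 168 lower ones 82 did. The line difference had the sign of the hybrid's call for 145 of the 164 and 63 of the 82. These probes were chosen on hybrid values that enter the test, so that their shares cannot be set against that over all probes.

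Catalase 2 was not among the probes that differed from A619. Its leaf ratios were 2.78, 4.53 and 2.66 in ND101/W23 and 3.56, 4.68 and 4.22 in A619, and the lines differed by -0.75 (adjusted p = 0.136). Other leaf transcripts moved in opposite directions. The lysophospholipase TC273756 had leaf ratios of 2.18, 2.71 and 0.94 in ND101/W23 and -0.63, -1.52 and -2.82 in A619, a line difference of 3.87 (adjusted p = 0.000208). rca1 had 1.34, 1.41 and 0.74 in ND101/W23 and -1.31, -0.53 and -1.0 in A619, a line difference of 2.12 (adjusted p = 0.000166). For PPCK1, the leaf ratios were negative in both lines but unequal in size, -0.83, -1.38 and -0.65 in ND101/W23 and -5.13, -5.01 and -4.18 in A619, a line difference of 3.54 (adjusted p = 3.71e-05). fer1 had 0.66, -0.08 and 0.39 in ND101/W23 and -2.05, -2.14 and -0.28 in A619, a line difference of 1.90 (adjusted p = 0.00539).

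Among the plastid-encoded transcripts, some differed between the lines at the threshold and others did not. psbI had leaf ratios of -1.46, -1.55 and -1.47 in ND101/W23 and -1.97, -0.20 and -0.77 in A619, with a line difference of -0.25 (adjusted p = 0.648), and ycf3 one of -0.21 (0.668). petB had -0.70, -1.70 and -1.51 in ND101/W23 and 0.38, 1.13 and 0.03 in A619, a line difference of -2.03 (adjusted p = 0.00237), and the psbB-psbF-petB-petD probe had -1.06, -0.87 and -1.50 in ND101/W23 and -0.09, 1.14 and -0.25 in A619, a line difference of -1.36 (0.00213). The leaf ratios of these 2 probes did not overlap between the lines, and the share of all probes for which this holds was not determined. psbC had a line difference of -1.32 (adjusted p = 0.0211) and the antisense psbB probe TC263487 one of -0.92 (0.0428). Another pair went the other way, with mean leaf ratios more negative in A619. For psbK the 1.5 mm anthers also stood apart, with means of -0.04 in ND101/W23 and 1.66 in A619. At 1 mm its means were -0.25 and -0.07. psbK (CF050423) had leaf ratios of -0.89, -0.88 and -1.86 in ND101/W23 and -2.04, -1.77 and -2.52 in A619, a line difference of 1.84 (adjusted p = 0.00327), and the forward ycf3 probe had -0.34, -0.20 and -0.87 in ND101/W23 and -3.19, -3.23 and -2.05 in A619, a line difference of 2.41 (0.0212). In anthers, the endo-glucanase had mean ratios of 3.63 at 1 mm and 2.90 at 1.5 mm in ND101/W23, and of 2.51 and 3.46 in A619, with a line difference of -0.60 (adjusted p = 0.616). v-SNARE 13 had means of -3.45 and -3.14 in the anthers of ND101/W23 and of -0.08 and -0.27 in those of A619, a line difference of 1.99 (adjusted p = 0.00999).

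**Figure D5:**
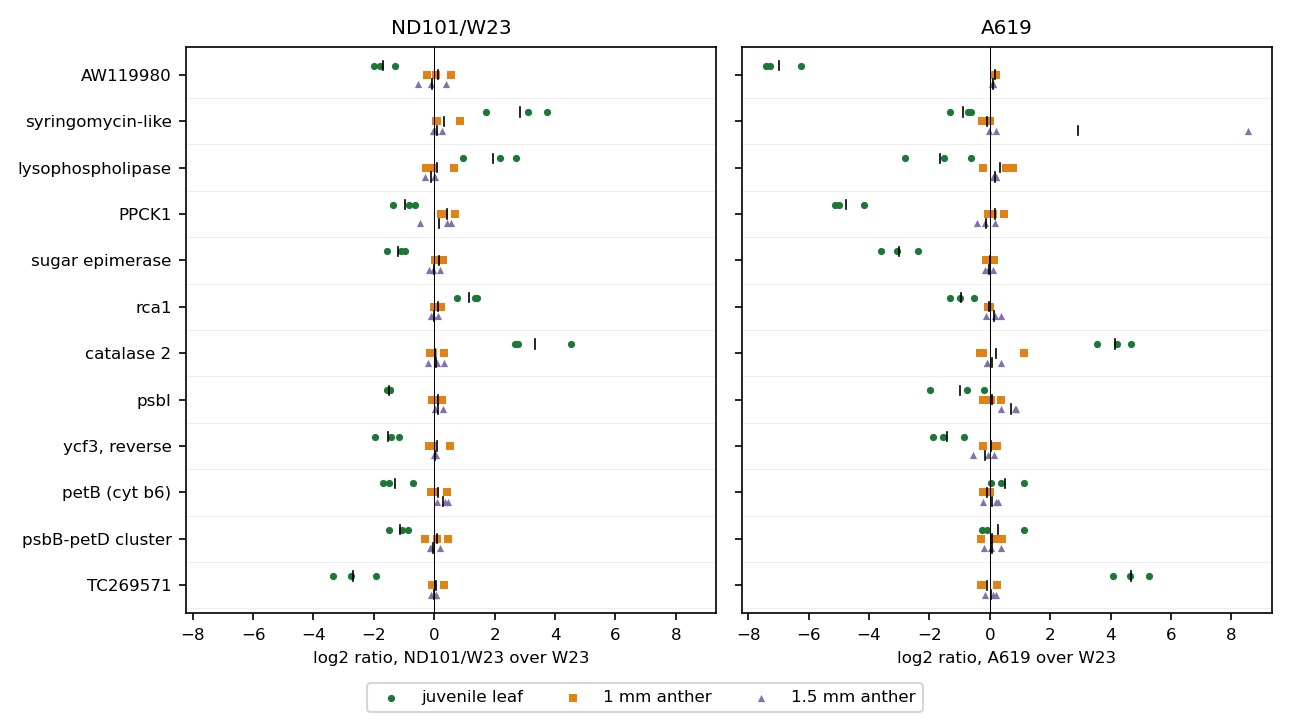
Log2 ratios over W23 on each array in ND101/W23 (left) and A619 (right) for 12 transcripts called in the hybrid's leaf minus anthers comparison, with leaf above 1 mm and 1.5 mm anthers in each row and short vertical lines for means of 3 arrays. The leaf ratios of catalase 2 are positive in both lines, those of the lysophospholipase, rca1 and TC269571 have opposite signs in ND101/W23 and A619, and 1 A619 array of 1.5 mm anthers stands at 8.55 for the syringomycin-like transcript.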

How the data were processed

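The authors used Agilent Feature Extraction on the images and left out saturated spots. Probes were kept if they passed limits set from negative controls in any comparison of a line with W23, those of pollen included. A kept probe can therefore lie below the limits in leaf or in anthers. The authors then fitted a loess curve through rank-invariant probes on each array, and brought the variances of triplicate arrays to one level. The deposited log2 ratios are these values, for 7900 of 21939 probes, and signal intensities were not used here. Low signals widen a ratio, and neither depth nor signal over background can be read from it, so that the number of arrays limits the precision. The dyes in the labels and in the study's design scheme are opposite for every array. The direction, ND101/W23 over W23, was therefore taken from ratios that the study states in that direction: for probes at 0.5 or more in size, 9 of 9 in leaf, 12 of 12 in 1 mm and 10 of 10 in 1.5 mm anthers had the same sign. Probe numbers in the study's tables minus 3 are the deposited ones: with this shift 22 of 26 ESTs named in both places were the same, and with every other shift tried 0.

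In limma 3.58.1 (R 4.3.3), a mean for each of the 3 tissues was fitted on the 9 arrays, with at least 2 values in each tissue, and the contrast was tested with eBayes (2-sided, Benjamini-Hochberg over all probes). The A619 comparison was fitted on differences of same-numbered arrays. Tables and plots were made with pandas 2.3.3, numpy 2.4.6 and matplotlib 3.10.9, and the fit was tested on simulated data. Product names are sequence matches listed by the study, and 83 measured probes carry 1 gene symbol of the platform table. Named are the called probes with a product name and the most extreme differences, 15 in each direction, the extremes of any name, up to 4 called members of each list and the qRT-PCR panel. Called platform genes, the plastid-encoded list and further called probes with a product name, among them CP12, CCS1, the asparaginyl-tRNA synthetase, TC264684, TC273391, TC272055 and TC255610, were added after their values were seen. The members, the 6 lists of the study, the 17 lists by product name and the tests were chosen with earlier results of these data known. Alternatives were other scalings and filters, fits on 12 or 24 arrays, a dye term, a replicate block, array weights, robust eBayes, either anther stage alone and leaving out each replicate.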

Additional observations from a re-analysis of the deposited data

Results flagged for a closer look

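The leaf minus anthers difference differed between ND101/W23 and A619 for 164 of the probes called higher in the hybrid's leaf and 82 of those called lower, at an adjusted p under 0.05 in a limma test on array pairs sharing a W23 sample. Over all probes 29.4% differed, and the called probes had been chosen on hybrid values that enter this test. The sign was that of the hybrid's call for 145 of the 164 and 63 of the 82. The 42 values below are those of the named probes alone: 36 had been called in the hybrid and 6 had not, and 11 of the 42 were named outside the rule, after their values were seen (PPCK1, TC255610, the forward ycf3 probe, rca1, fer1, opr8, CP12, the asparaginyl-tRNA synthetase, BM737050, TC277848 and the antisense psbB probe). A value below is the leaf minus anthers difference in ND101/W23 minus that in A619, on the log2 scale. The causes were not tested.

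The largest value, 5.41, was that of AW119980, which had leaf ratios of -1.78, -2.00 and -1.30 in ND101/W23 and -7.42, -7.27 and -6.24 in A619. It was 4.94 for the syringomycin-like TC272805, a value to which 1 A619 array of 1.5 mm anthers at 8.55 contributes, and 3.87 for the lysophospholipase TC273756. It was 3.54 for PPCK1 (CB886028) and 2.91 for TC255610, similar to a peptide synthetase over a short stretch. Other probes with a larger value in the hybrid were unnamed probe 21045 at 2.85, the dicarboxylate cotransporter CF634733 at 2.17, rca1 (AW566413.1) at 2.12, the Ser/Arg-related TC261928 at 2.03, proteinase IV (BE453757) at 2.01 and v-SNARE 13 (TC249924) at 1.99. fer1 (AI065770) had 1.90 and opr8 (CD952571) 1.58. The sugar epimerase-like TC264386 had 1.71, the formamidase-like TC259137 1.50, ribosomal protein L34 (TC270374) 1.47 and the UVR8-like TC250964 1.25. Smaller values were those of CP12 (TC262005) at 1.17, BG360704 at 1.16, the asparaginyl-tRNA synthetase TC271589 at 1.11, a peroxisomal membrane protein at 1.10, BQ401277 at 0.95, the zinc finger protein TC262867 at 0.87, a rhomboid-like protein (BM737050) at 0.84 and ribosomal protein L3 (TC270449) at 0.80.

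Among the probes not called in the hybrid, the value was 2.41 for the forward ycf3 probe, 1.94 for PsbW (TC270718), 1.84 for psbK (CF050423), 0.95 for beta-6 tubulin (TC248696), -0.64 for the splicing factor SRP32 (TC248836) and -0.92 for the antisense psbB probe (TC263487).

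Negative values of called probes were found for TC277848 at -0.67, GRAB1 (TC261714) at -0.82, the drought-inducible TC258611 at -1.03, the RING protein TC273028 at -1.16, psbC (TC251612) at -1.32, the psbB-psbF-petB-petD probe at -1.36, the cell cycle transcript TC250741 at -1.84, petB (TC274654) at -2.03, the cytochrome b-like TC256120 at -2.23 and unnamed probe 21007 at -2.99. The value of TC269571, an unknown leaf-specific transcript, was -7.40: its leaf ratios were -2.75, -3.37 and -1.93 in ND101/W23 and 4.64, 5.27 and 4.08 in A619.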

How the results depend on the processing

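No called probe changed sign under any setting. For leaf minus anthers (505 calls, 337 higher and 168 lower), a fit on 12 ND101/W23 arrays called 792 (516 and 276), one on 24 arrays 1218 (745 and 473), array weights 1463 (895 and 568), and 1.5 mm anthers alone 151 (95 and 56). Leaving out each replicate gave 115 to 831 calls (78 to 555 higher and 37 to 276 lower). Without leaf replicate 3 and 1 mm anther replicate 2, a setting chosen after seeing the data, 130 were called (83 and 47). For leaf minus 1 mm anthers (401), 12 arrays gave 736, 24 arrays 1171, weights 639, the setting chosen later 20, and leaving out each replicate 70 to 616. For leaf minus 1.5 mm anthers (151), the values were 285, 483, 825 and 76, and 0 to 315, with 0 without 1.5 mm replicate 3; a dye term gave 81. For 1.5 mm minus 1 mm (0), 24 arrays gave 5 and leaving out a replicate 0 to 6. Against W23, the leaf (714) had 1139 calls on 24 arrays, 1714 with weights, 335 with the setting chosen later and 191 to 840 without a replicate, and the anthers (835) had 1305 on 24 arrays, 457 with the setting chosen later and 498 to 1294. The difference from A619 (2320) had 1389 to 2305 calls. The causes were not tested.

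With the replicate number as a block, 584 probes were called for leaf minus anthers (419 higher and 165 lower), 418 against 1 mm and 107 against 1.5 mm anthers, 745 in leaf and 823 in anthers. Same-numbered arrays of different tissues deviated together at correlations of -0.27 to 0.382 and others at -0.464 to 0.205. These ranges overlap, and they do not settle whether the numbers pair the samples. Without the pairing, the difference from A619 had 1562 calls. By the labels, the hybrid was in Cy5 on replicates 1 and 2 of leaf and of 1 mm anthers. At 1.5 mm it was in Cy5 on replicate 1 alone, so that dye is partly tied to the contrast. A dye term gave 525 calls for leaf minus anthers. Other settings stayed within 1.5 times the counts. Of the 68 named calls, 60 were kept with the block, 57 with a dye term, 17 in all 9 fits without a replicate, 19 without leaf replicate 1 and 22 with the setting chosen later.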
